A study of Mus musculus with 18 samples.

Results

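Killer cell lectin-like receptors are C-type lectin-like receptors on the surface of natural killer (NK) cells, and the genes that encode them carry symbols that start with Klr. Members were taken by symbol: 31 of the 56953 genes in the count tables carry such a symbol, all on mouse chromosome 6. They fall into 9 subfamilies (Klra, Klrb, Klrc, Klrd, Klre, Klrg, Klrh, Klri and Klrk), and 29 of the 31 passed the filter on low counts. The RNA came from mouse spleen NK cells grown in recombinant human interleukin-2 (IL-2, 1700 U/ml) in hypoxia (1% oxygen) until day 7. Samples fall into 6 groups of 3 biological replicates. Hif1a flox cells carry loxP-flanked Hif1a alleles, Ahr flox cells loxP-flanked Ahr alleles and Hif1a Ahr flox cells both, all without Cre. The matching Hif1a KO, Ahr KO and Hif1a Ahr KO cells carry the same alleles with Ncr1 iCre, a Cre recombinase under the control of Ncr1, a gene of NK cells and some related lymphoid cells. Every group, controls included, was hypoxic and IL-2 treated, so no group shows the receptors in normoxia. Each KO group carries Cre and no flox group does. Within a line, loss of the targeted gene and presence of Cre therefore cannot be told apart. HIF-1α is the oxygen-regulated subunit of a transcription factor of the hypoxic response, and AhR is a ligand-activated transcription factor.

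NK cells weigh signals from inhibitory and activating receptors. Inhibitory members carry in the cytoplasmic tail a motif called ITIM, an immunoreceptor tyrosine-based inhibitory motif, which recruits phosphatases such as SHP-1. Activating members lack it and signal through adaptor proteins, DAP12 (gene Tyrobp), DAP10 (gene Hcst) or the Fc receptor gamma chain (gene Fcer1g). Klra genes encode the Ly49 receptors, most of which bind MHC class I. Klrb1 genes encode the NKR-P1 receptors, which bind Clec2 proteins. Klrd1 encodes CD94, which pairs with the NKG2 proteins of Klrc1, Klrc2 and Klrc3. Klrk1 encodes NKG2D, a receptor for stress-induced ligands.

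The coding starts below show how members that moved differently are built at the tail, which is encoded first in these proteins. They are the first 120 coding bases of the longest GENCODE vM21 (GRCm38) coding sequence, and capitals mark the 18 bases that match the ITIM: a codon for isoleucine, valine, leucine or serine, any codon, a tyrosine codon, a pair of any codons, and a codon for isoleucine, valine or leucine. Klra5 and Klra9 carry the match and Klra8 has none. Klrc1 carries it, and Klrc2 and Klrc3 do not. Klri1 carries it and its partner Klri2 does not.
Klra5: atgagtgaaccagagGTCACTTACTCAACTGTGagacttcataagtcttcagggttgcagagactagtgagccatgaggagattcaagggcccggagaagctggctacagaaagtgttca
Klra9: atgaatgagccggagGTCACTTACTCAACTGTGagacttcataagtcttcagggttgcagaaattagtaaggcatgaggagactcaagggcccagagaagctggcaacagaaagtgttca
Klra8: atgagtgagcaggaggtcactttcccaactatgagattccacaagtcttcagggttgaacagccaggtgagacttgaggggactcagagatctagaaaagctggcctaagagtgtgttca
Klrc1: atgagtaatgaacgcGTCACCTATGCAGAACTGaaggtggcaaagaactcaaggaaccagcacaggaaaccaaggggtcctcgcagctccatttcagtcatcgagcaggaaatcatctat
Klrc2: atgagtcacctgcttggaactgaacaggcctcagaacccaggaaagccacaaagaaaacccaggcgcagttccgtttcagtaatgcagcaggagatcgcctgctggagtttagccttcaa
Klrc3: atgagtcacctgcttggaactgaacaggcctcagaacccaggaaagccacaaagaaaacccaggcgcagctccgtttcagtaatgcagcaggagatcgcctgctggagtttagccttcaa
Klri1: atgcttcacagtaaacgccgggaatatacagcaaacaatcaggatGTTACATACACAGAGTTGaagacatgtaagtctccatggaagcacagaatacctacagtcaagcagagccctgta
Klri2: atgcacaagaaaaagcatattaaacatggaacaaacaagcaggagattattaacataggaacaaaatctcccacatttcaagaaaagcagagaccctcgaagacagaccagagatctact
Klrb1: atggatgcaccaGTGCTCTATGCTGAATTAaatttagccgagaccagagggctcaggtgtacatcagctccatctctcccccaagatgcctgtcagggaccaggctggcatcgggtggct
Klrb1f: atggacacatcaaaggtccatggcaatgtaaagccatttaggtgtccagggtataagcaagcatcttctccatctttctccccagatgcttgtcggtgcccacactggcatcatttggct
Klrk1: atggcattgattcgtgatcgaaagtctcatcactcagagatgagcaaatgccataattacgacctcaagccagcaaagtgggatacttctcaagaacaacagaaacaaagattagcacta
A match in the first 75 codons was found in 15 of the 27 members with a coding sequence. Over all genes with a coding sequence, 9.8% (2119 of 21575) held one there. The 12 members without a match are Klra4, Klra8, Klrb1a, Klrb1f, Klrc2, Klrc3, Klrd1, Klre1, Klrg2, Klrh1, Klri2 and Klrk1. The match in Klrb1c, which encodes the activating receptor NK1.1, lies at bases 157 to 174 of its longest coding sequence and not among its first 120 bases. A match of letters is a description and does not show that the motif is used. It does not sort members by function either. Klrb1c has a match though its receptor is activating. Klrd1 and Klre1 have none, yet their products pair with inhibitory as well as activating chains.

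Near-identical members limit how finely the counts can be read. The authors' counts come from pseudoalignment, which shares reads among transcripts that hold the same sequence. In the GENCODE vM21 transcripts, the share of a member's 31-base words found in no other gene was lowest in Klra10 (34.9%), Klra9 (42.2%), Klra8 (45.0%), Klrc3 (46.6%) and Klrc1 (46.9%). Klrd1, Klrg1 and Klrg2 shared no such word with another gene, and Klrb1f had 99.7% of its own. Klra3 and Klra9 were 95.9% identical over their aligned coding sequence, Klra5 and Klra9 90.0%, Klrc2 and Klrc3 88.5%, and Klri1 and Klri2 77.5%. Klrb1b shared 27.5% and Klrb1c 13.1% of their words with Gm44511, a gene outside the Klr set. Values for members that share words, above all the Klra and Klrc genes, Klrb1b and Klrb1c, are therefore uncertain in how they split reads. Sums over subfamilies are given beside them, but the Klrb sum still depends on the split with Gm44511.

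**Figure D1:**
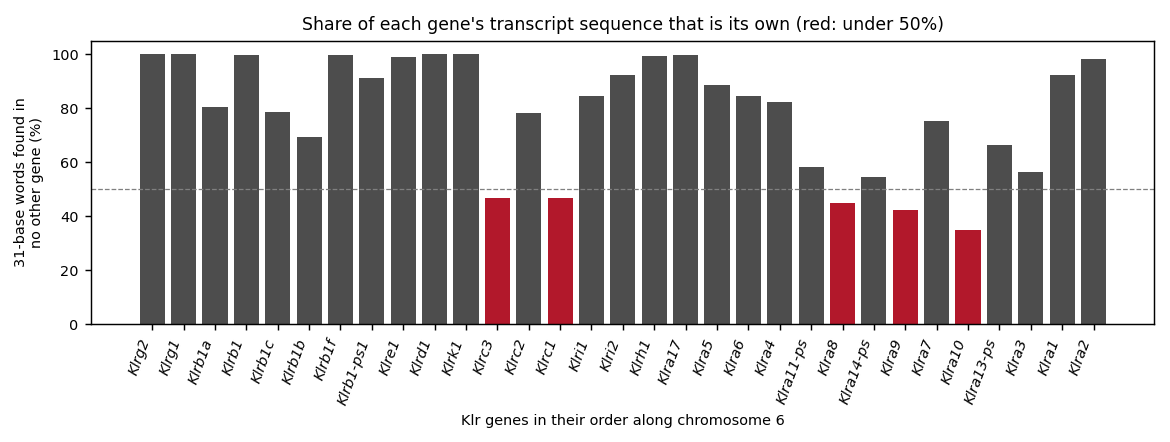
Share of the 31-base words in each member's transcripts that occur in no other gene (vertical axis, percent), with members in their order along chromosome 6. Red bars mark the 5 members under 50%, Klrc3, Klrc1, Klra8, Klra9 and Klra10, which depend most on how shared reads were split.

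Library totals were alike, from 54420649 to 55732940 estimated counts, and the members together took 0.254% to 0.359% of a library. Levels are in CPM, counts scaled to library size, with TMM scaling. Ncr1, which marks NK cells and names the Cre line, was 101 to 131 CPM in the 9 flox libraries and 204 to 258 CPM in the 9 KO libraries. It was called higher in the KO group of the Hif1a, Ahr and Hif1a Ahr lines (log2 changes 0.92, 0.97 and 1.06). Hif1a counts did not fall in the groups labelled Hif1a KO (60.3 ± 4.28 CPM in flox and 180 ± 32 CPM in KO, SD, n = 3) or Hif1a Ahr KO. Ahr counts were 76.5 ± 2.35 CPM in Ahr flox and 92.1 ± 4.4 CPM in Ahr KO (SD, n = 3). Counts summed over a whole gene include transcripts that lack a deleted exon, so they check neither deletion, and the directions below rest on the labels. The 9 NK marker genes summed to 13335 to 15113 CPM in Hif1a KO against 19808 to 24059 in Hif1a flox, and to 24831 to 29489 CPM in Ahr KO against 18339 to 25030 in Ahr flox. Gzmb (14381 to 10221 CPM) and Prf1 (3576 to 716 CPM) carried most of the sum in the Hif1a line, where 4 of the 9 genes were called lower and 3 higher (Ncr1, Itga2 and Tbx21). The 5 B cell markers summed to between 0.143 and 1.18 CPM in a library. Pax5 was at 0 in all 3 libraries of Hif1a KO, Ahr flox and Hif1a Ahr KO. Cd79b, the 1 B cell marker tested, was called lower in Ahr KO (0.763 to 0.281 CPM, adjusted p = 0.0275). It was called lower in Hif1a Ahr KO too (0.773 to 0.159 CPM, adjusted p = 3.42e-04). The 12 T cell markers summed to 448 to 462 CPM in Hif1a KO against 540 to 590 in Hif1a flox, with 4 called lower and 0 higher. In Ahr KO 2 were called lower and 0 higher, with a list median log2 change of 0.39. In Hif1a Ahr KO 2 were called lower, Cd3d and Cd3g as in the other lines, and 2 higher, Cd6 and Trdc. Cd6 went from 0.225 ± 0.0894 to 2.37 ± 2.08 CPM (SD, n = 3, 10.4-fold, adjusted p = 0.00416), so its KO libraries differed widely. Trdc went from 42 ± 4.25 to 59.5 ± 13.6 CPM (SD, n = 3, 1.42-fold, adjusted p = 0.00417), with overlapping groups. The 5 markers of type 1 innate lymphoid cells (ILC1) summed to 182 to 300 CPM in Hif1a KO against 380 to 434 in Hif1a flox. They did not move as a set there. Itga1 (222 to 60.4 CPM) and Tmem176a were called lower, and Tnfsf10 higher (48.1 to 95.9 CPM, adjusted p = 0.0158). In the Hif1a Ahr line the sum was 97.9 to 214 CPM in KO against 376 to 473 in flox, with 4 called lower and 0 higher. The 7 myeloid markers summed to 361 to 423 CPM in Hif1a KO against 292 to 334 in Hif1a flox, although 5 of the 6 tested were called lower. In such bulk RNA, fewer cells of a type and less RNA per cell cannot be told apart, and the part of these shifts in the results below was not tested.

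Per kilobase of the longest transcript, Klrd1 was the most abundant member (430 CPM per kb, mean of 18 libraries). Klra7 (Ly49G, 221 CPM per kb), Klrb1c (211), Klra4 (Ly49D, 140), Klra8 (Ly49H, 128) and Klrk1 (91.4) followed. At the low end were Klrg2 (0.0765 CPM per kb), Klra17 (0.303) and Klra2 (1.41). Below the filter, Klrh1 lay between 0 and 0.171 CPM, and Klrb1-ps1, a pseudogene, was above 0 in 1 library only (0.0376 CPM). Across the 3 flox groups no member was called different by edgeR's quasi-likelihood F test, with 5 members at an unadjusted p under 0.05 and a lowest adjusted p of 0.165. The same test called 0.245% of all genes. DESeq2 called 2 members, Klra5 (adjusted p = 0.02) and Klra13-ps (adjusted p = 0.0196), and limma voom called 0. The highest flox mean was 1.03 to 1.84 times the lowest, with a median over members of 1.17.

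In Hif1a KO cells 9 of the 11 tested receptor genes without the inhibitory motif match rose, namely Klrk1, Klrc2, Klrc3, Klrd1, Klre1, Klri2, Klrb1a, Klrb1f and Klra8. Of the 29 members, 14 were called (48.3%; 35.4% of all genes tested): 11 were called higher (37.9%), where 17.6% of all genes tested were, and 3 were called lower (10.3%), where 17.8% of all genes were. A call is an adjusted p under 0.05 in edgeR's quasi-likelihood F test, adjusted by Benjamini-Hochberg over all 16747 genes tested. The median log2 change was 0.12 over members and -0.01 over all genes. Of the 11 tested members without the motif match, 9 were called higher and 0 lower, with a median log2 change of 0.47. Of the 15 with a match, 1 was called higher (Klra3) and 2 lower (Klra5 and Klra9), with a median of -0.02. The 2 members without a match that were not called were Klra4 (log2 change 0.12) and Klrg2 (-0.20). This grouping was made after the members' values had been seen, so no test is attached to it. Klre1, Klrd1, Klrk1, Klrc3 and Klrc2 are also neighbours, at places 9 to 13 of the members along chromosome 6. For these, motif match and position cannot be told apart, and the members are not independent.

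**Figure D2:**
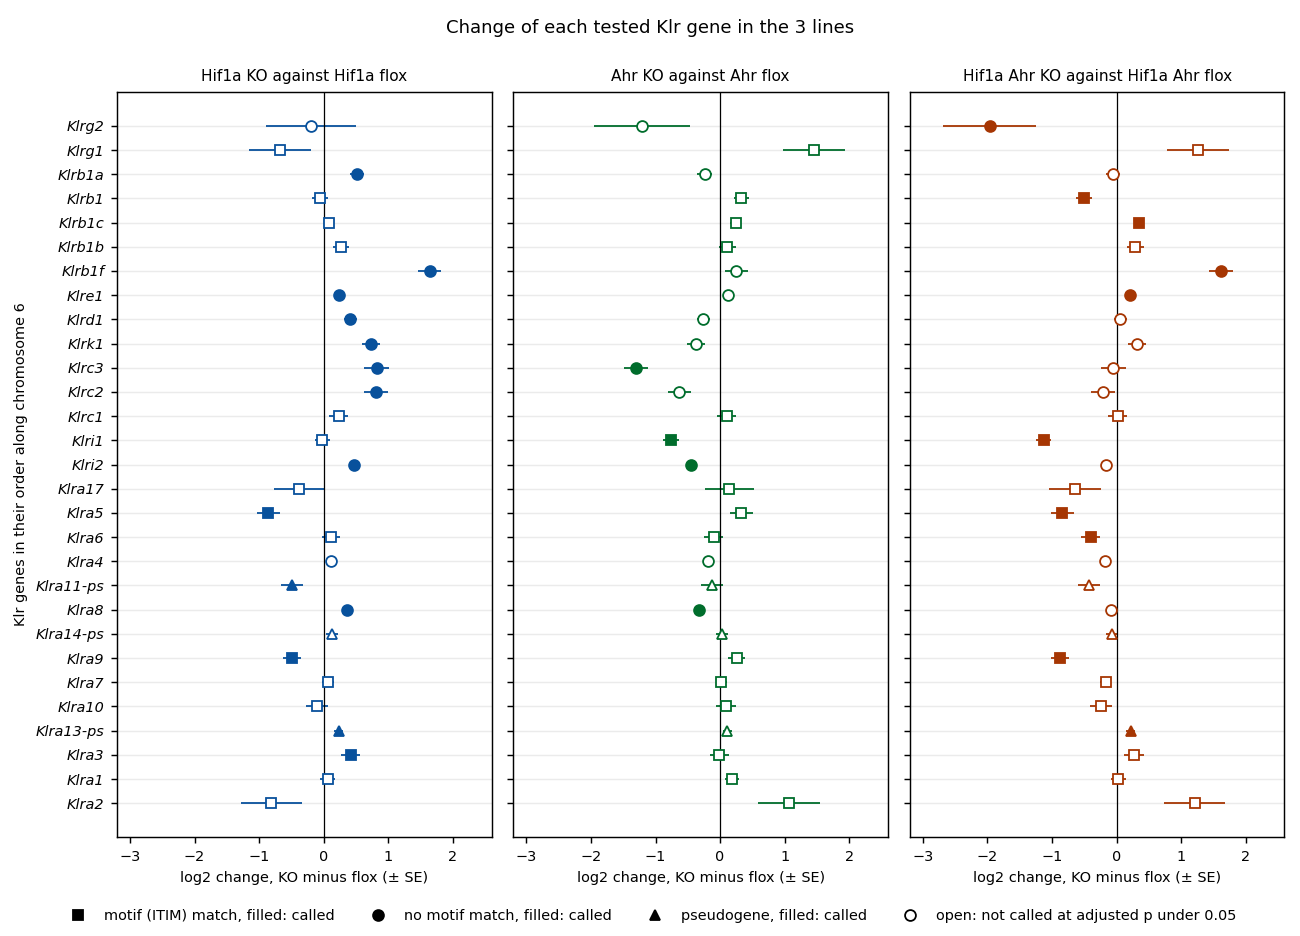
Change of each tested member in KO against flox cells (horizontal axis, log2, bars are 1 SE of the fit), with members in their order along chromosome 6 and 1 panel per line. Filled marks are called, squares carry the motif match, circles do not and triangles are pseudogenes. In the Hif1a line 9 of 11 circles are filled to the right of 0 (17.6% of all genes tested were called higher). In the Ahr line 3 of 11 are filled to the left (4.78% of all genes tested were called lower).

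In Ahr KO cells, 4 members were called (13.8%; 6.92% of all genes), all 4 lower (4.78% of all genes): Klrc3, Klri1, Klri2 and Klra8. No member was called higher by edgeR (2.14% of all genes were), with 4 higher at an unadjusted p under 0.05, and 3 called by DESeq2 and 1 by limma voom. Same-numbered KO and flox libraries deviated together in this line and in the Hif1a line, so the replicate number was also fitted as a block. The labels give the numbers but name no pairing. With the block, 8 members were called lower in Ahr KO (8.29% of all genes), Klra4, Klrc2, Klrd1 and Klrk1 besides those 4, and 5 higher (6.17% of all genes), Klra2, Klra5, Klra9, Klrb1c and Klrg1. In Hif1a KO the block gave 5 lower (20.4% of all genes), with Klra2 and Klrg1 added, and 13 higher (20.3%), with Klrc1 and Klrb1b added. All 4 of these added members carry the motif match. In the blocked fit of the Ahr line 7 of the 8 lower members lack the motif match, and all 5 higher members carry it. This is not a split into activating and inhibitory members. Klrb1c, among the higher ones, encodes an activating receptor, and Klrd1, among the lower ones, encodes a partner of the inhibitory Klrc1 product too. All of these are counts of members and not tests of a set.

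In Hif1a Ahr KO cells, 10 members were called (34.5%; 31.3% of all genes). Of these, 4 were called higher (13.8% of 29; 14.8% of all genes), Klrb1f, Klrb1c, Klre1 and Klra13-ps. Klra5, Klra9, Klra6, Klrb1, Klrg2 and Klri1 were called lower, 6 of 29 (20.7%; 16.5% of all genes). Both shares were near those of all genes. Of the 11 tested members without the motif match 2 were called higher and 1 lower (median log2 change -0.06), and of the 15 with it 1 was called higher and 5 lower (median -0.17). Of the calls, 5 were shared, in the same direction, with the 14 of the Hif1a line (35.7% of those, 50% of the 10 here): Klrb1f, Klre1, Klra13-ps, Klra5 and Klra9. None of the 4 members called in Ahr KO but Klri1 was called here. Values of the 3 KO and 3 flox libraries did not overlap for 12 higher and 3 lower members in the Hif1a line (24.8% and 25.1% of all genes), 5 and 9 in the Ahr line (13.8% and 15.3%), and 4 and 8 in the Hif1a Ahr line (17.6% and 19.6%).

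Changes differed between the Hif1a and Ahr lines for 14 of 29 members (48.3%; 32.3% of all genes). With the replicate block Klra3 was called too (difference 0.42, adjusted p = 0.00169, against 0.15 without the block), 15 in all. Klra8, Klrc3 and Klri2 were called in both lines in opposite directions, higher in Hif1a KO and lower in Ahr KO, and no member was called in the same direction in both. For Klrc3 the difference was 2.12 ± 0.27 and for Klrc2 1.43 ± 0.26 on the log2 scale (adjusted p = 1.19e-05 and 6.21e-04). The Hif1a Ahr change differed from the Hif1a change for 6 members (20.7%; 9.63% of all genes): Klra8, Klrb1a, Klrc2, Klrc3, Klri1 and Klri2, each lower in Hif1a Ahr KO relative to its flox than in Hif1a KO. It differed from the Ahr change for 6 (20.7%; 16.4% of all genes), namely Klra5, Klra9, Klrb1, Klrb1f, Klrc3 and Klrk1. Of the 29 members, 10 were called in no line.

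Klrk1 encodes NKG2D, which in NK cells signals through DAP10 and DAP12. It stood at 258, 279 and 210 CPM in Hif1a flox and at 420, 429 and 392 CPM in Hif1a KO, groups that did not overlap. The rise was 1.66-fold (log2 change 0.73 ± 0.14 SE, edgeR adjusted p = 7.96e-04). In Ahr flox the values were 266, 261 and 285 CPM and in Ahr KO 206, 199 and 223 CPM, every KO library below every flox library. That log2 change of -0.37 ± 0.14 was not called (adjusted p = 0.147), but it was with the replicate number as a block (adjusted p = 0.0053). With both genes targeted Klrk1 lay at 369, 312 and 391 CPM against 291, 212 and 358 CPM in Hif1a Ahr flox, which overlap (log2 change 0.32, adjusted p = 0.106). The Hif1a and Ahr changes differed by 1.10 ± 0.20 on the log2 scale (adjusted p = 5.45e-04).

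The CD94 and NKG2 genes encode a common chain, an inhibitory chain and 2 chains without the motif match. Klrd1, the CD94 chain common to them, rose from 382, 368 and 312 CPM in Hif1a flox to 511, 463 and 435 CPM in Hif1a KO (1.33-fold, adjusted p = 0.00383). Klrc2, which encodes activating NKG2C, rose from 44.1, 51.4 and 38.5 CPM to 78.7, 87.6 and 67.9 CPM, 1.75-fold with no overlap (adjusted p = 0.00295). Klrc3, which encodes NKG2E, rose from 4.01, 5.56 and 4.6 CPM to 7.94, 9.39 and 7.64 CPM (1.76-fold, adjusted p = 0.00212). The gene of the inhibitory chain NKG2A, Klrc1, stood at 110, 103 and 86.7 CPM in Hif1a flox and 123, 117 and 111 CPM in Hif1a KO, a log2 change of 0.23 ± 0.15 that was not called (adjusted p = 0.236), although it was with the replicate block (adjusted p = 0.00569). Whether Klrc1 and Klrc2 changed by different amounts was not tested.

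In Ahr KO cells Klrc3 was called lower and Klrc2 lay lower without a call. Klrc3 fell from 7.04, 5.11 and 6.31 CPM in Ahr flox to 2.53, 2.24 and 2.71 CPM in Ahr KO, the largest fall by fold among the 4 members called there (2.47-fold lower, log2 change -1.30 ± 0.19, adjusted p = 4.79e-04). Klrc2 stood at 62.1, 54.2 and 56.5 CPM in Ahr flox and 39.6, 34.3 and 37.9 CPM in Ahr KO. Its groups did not overlap, and its log2 change of -0.63 ± 0.18 missed the call by little (adjusted p = 0.0535) and passed it with the replicate block (adjusted p = 7.29e-05). Klrc2 was also called by limma voom (adjusted p = 0.041), by DESeq2 (adjusted p = 0.00552) and with only the compared groups (adjusted p = 0.00122), but not in the other alternatives. Klrd1 was 379, 411 and 407 CPM in Ahr flox and 328, 340 and 331 CPM in Ahr KO (log2 change -0.26, adjusted p = 0.137, and 0.0209 with the block). Klrc1 overlapped between Ahr flox and Ahr KO (means 122 and 130 CPM). As Klrc2 and Klrc3 share sequence, their sum is given too. It was 49.4 ± 7.02 CPM in Hif1a flox and 86.4 ± 10.7 CPM for Hif1a KO, and 63.8 ± 4.98 CPM for Ahr flox and 39.8 ± 2.89 CPM for Ahr KO (SD, n = 3).

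With both genes targeted, none of these genes was called. Klrc2 was 68.6, 38.6 and 56.8 CPM in Hif1a Ahr flox and 50.9, 37.4 and 53.9 CPM in Hif1a Ahr KO. Klrc3 was 7.06, 4.18 and 5.23 CPM against 5.63, 4.22 and 6.07 CPM. Klrd1 was 419, 326 and 450 CPM against 430, 395 and 421 CPM. All 3 overlapped between the groups, with log2 changes of -0.21, -0.05 and 0.06 and adjusted p of 0.433, 0.874 and 0.699. The Hif1a Ahr change was smaller than the Hif1a change by 1.01 for Klrc2 (adjusted p = 0.025) and by 0.87 for Klrc3 (adjusted p = 0.045), each on the log2 scale. For Klrc2 that difference was lost in 9 of 18 alternatives (highest adjusted p 0.0708), and for Klrc3 in 8 of 18 (highest 0.131). Both were lost without Hif1a Ahr flox replicate 1 or 3, Hif1a Ahr KO replicate 2, Hif1a flox replicate 1 or 3, or Hif1a KO replicate 1 or 2. The Klrc3 change differed from that in Ahr KO by 1.25 (adjusted p = 0.00332).

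**Figure D3:**
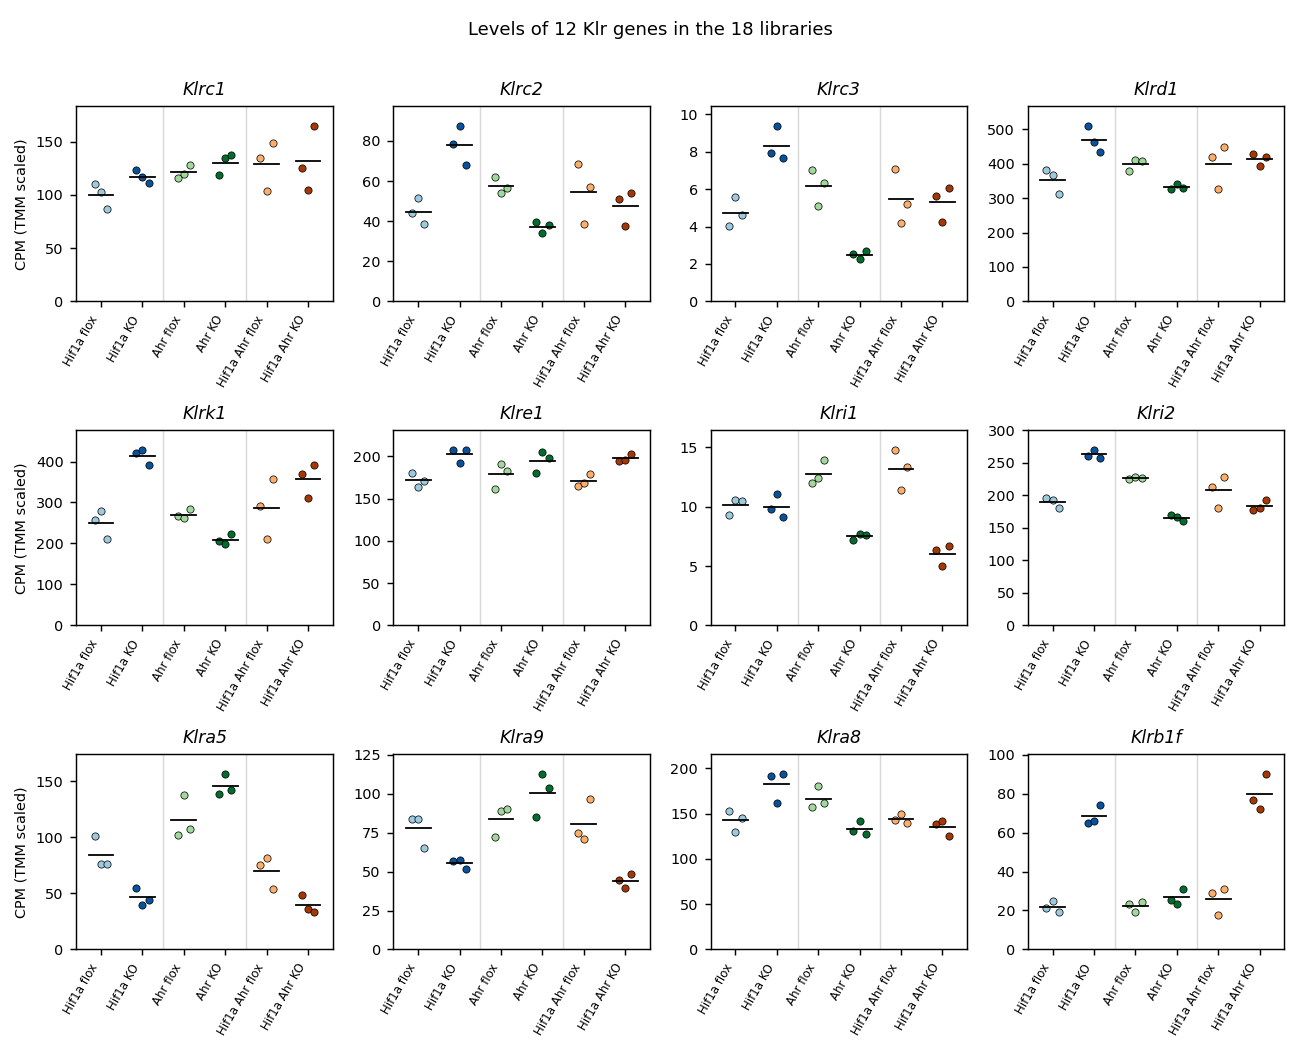
Levels of 12 members in the 18 libraries (vertical axes, CPM with TMM scaling, from 0); points are libraries and lines group means of 3. Klrk1, Klrc2, Klrc3, Klrd1 and Klri2 are high in Hif1a KO and low in Ahr KO, Klrb1f is high in both KO groups of the lines that target Hif1a, and Klri1 is low in both KO groups of the lines that target Ahr.

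The letters ACGTG, a core of the site that HIF bound to its partner ARNT recognises, were searched on both strands of the 250 bases before each RefSeq start site (GRCm38.p6). They were found in 4 of 29 member promoters (24 members had an entry) and in 16.6% of all 32851 promoters, so they were not more common among members. The 4 were those of Klrk1, Klrc3 and both start sites of Klrc2. GCGTG, a core of the site for AhR with ARNT, was found in 1 member promoter, Klrb1a, and in 28.2% of all. The stretches that hold ACGTG are shown because Klrk1, Klrc2 and Klrc3 are among the members that rose in Hif1a KO, with the match in capitals. No ACGTG match was found for any other member that rose there, Klrb1f included, though not every member had an entry. Klrb1a, whose promoter holds GCGTG, rose there too. Klrc2 and Klrc3 carry the same 100 bases, in which the palindrome CACGTG matches on both strands. Both Klrc2 start sites hold the same match, so the 4 promoters are not independent.
Klrk1: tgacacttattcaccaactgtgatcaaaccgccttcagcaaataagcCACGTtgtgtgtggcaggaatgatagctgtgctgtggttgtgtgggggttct
Klrc3: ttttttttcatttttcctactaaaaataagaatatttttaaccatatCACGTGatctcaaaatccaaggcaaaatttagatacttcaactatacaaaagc
The Klrk1 stretch is chr6:129623974-129624072, the Klrc3 stretch chr6:129643427-129643526 and the Klrc2 stretch chr6:129660695-129660794, all on the minus strand of GRCm38.p6. A match shows the letters only, and no data on binding were used here.

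Klri1 and Klri2 encode KLRI1 and KLRI2, which each pair with KLRE1, the product of Klre1. KLRI1 carries the motif and is inhibitory, and the pair with KLRI2 is activating. Klri2 rose from 196, 192 and 181 CPM in Hif1a flox to 261, 270 and 257 CPM in Hif1a KO (1.39-fold, log2 change 0.47 ± 0.07, adjusted p = 4.92e-05). In Ahr KO it fell from 225, 228 and 226 CPM to 170, 166 and 160 CPM (log2 change -0.45 ± 0.07, adjusted p = 6.95e-04). Both pairs of groups were far apart compared with their spread, and the changes differed by 0.92 ± 0.10 (adjusted p = 2.27e-06), the smallest adjusted p among members for that difference. With both genes targeted it was 213, 181 and 228 CPM in flox and 178, 180 and 193 CPM in KO, which overlap (adjusted p = 0.0701).

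Klri1 fell in both lines that target Ahr. In Hif1a flox it stood at 9.27, 10.6 and 10.5 CPM and in Hif1a KO at 9.77, 11.1 and 9.14 CPM, which overlap (log2 change -0.02 ± 0.12, adjusted p = 0.934). It fell from 12, 12.4 and 13.9 CPM in Ahr flox to 7.19, 7.71 and 7.64 CPM in Ahr KO (1.70-fold lower, adjusted p = 6.95e-04). Hif1a Ahr KO showed a fall too, from 14.8, 11.4 and 13.3 CPM to 6.36, 5.01 and 6.7 CPM (2.19-fold lower, log2 change -1.13 ± 0.12, adjusted p = 1.21e-06). Its change in Hif1a KO differed from that in Ahr KO by 0.75 ± 0.17 (adjusted p = 0.00207) and from that in Hif1a Ahr KO by 1.11 on the log2 scale (adjusted p = 0.00113). The Ahr and Hif1a Ahr changes were not called different (-0.36 ± 0.17, adjusted p = 0.153). Klri1 was the 1 member called lower in both lines that target Ahr, which is 25% of the 4 called in Ahr KO and 10% of the 10 called in Hif1a Ahr KO.

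Klre1 rose a little in both lines that target Hif1a. It was 180, 164 and 171 CPM in Hif1a flox and 207, 192 and 208 CPM in Hif1a KO (1.18-fold, adjusted p = 0.011). Hif1a Ahr flox gave 165, 168 and 179 CPM and Hif1a Ahr KO 194, 196 and 203 CPM (1.16-fold, adjusted p = 0.0248). The groups did not overlap in either line, but the first call was lost without Hif1a flox replicate 2 (adjusted p = 0.052). The second was lost in 5 of 12 alternatives, with adjusted p up to 0.0828 (without Hif1a Ahr flox replicate 1). The others were without Hif1a Ahr flox replicate 2, Hif1a Ahr KO replicate 2 and Hif1a Ahr KO replicate 3, and with only the compared groups.

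Klrb1f had the largest rise of any member, in both lines that target Hif1a. The gene encodes NKR-P1F, an activating receptor that binds the product of Clec2i. It stood at 21.4, 25.1 and 19.2 CPM in Hif1a flox and 65.2, 66.2 and 74.1 CPM in Hif1a KO (3.12-fold, log2 change 1.64 ± 0.18, adjusted p = 4.78e-06). In Hif1a Ahr flox it was 29, 17.8 and 30.8 CPM and in Hif1a Ahr KO 76.8, 71.9 and 90.3 CPM (3.08-fold, log2 change 1.62 ± 0.18, adjusted p = 5.74e-06). Every KO library lay above every flox library in both lines, and the changes differed by -0.02 ± 0.24 (adjusted p = 0.975). In Ahr flox and Ahr KO the values, 23.5, 19.4 and 24.4 against 25.6, 23.4 and 31 CPM, overlapped (log2 change 0.25, adjusted p = 0.483). Its ligand gene Clec2i rose in the same pair of lines, 2.19-fold in Hif1a KO (34.4 ± 5.85 to 75.4 ± 0.564 CPM, SD, n = 3, adjusted p = 1.81e-05) and 1.77-fold in Hif1a Ahr KO (adjusted p = 3.66e-04, named there after its value was seen). In Ahr KO Clec2i was not called (log2 change -0.43, adjusted p = 0.0905).

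The other Klrb genes moved less. Klrb1a, which encodes the activating receptor NKR-P1A, rose from 19.4, 20.8 and 21 CPM in Hif1a flox to 27.3, 32.1 and 28.4 CPM in Hif1a KO (1.44-fold, adjusted p = 0.00104). Its means were 22.9 and 19.4 CPM in Ahr flox and Ahr KO (adjusted p = 0.223) and 22.1 and 21.3 CPM in the Hif1a Ahr line (adjusted p = 0.75). Klrb1c, the NK1.1 gene used to identify NK cells, rose from 494, 502 and 488 CPM in Hif1a Ahr flox to 630, 619 and 648 CPM in Hif1a Ahr KO (1.28-fold, adjusted p = 0.00324). In the Hif1a line it was level (527 ± 29.1 and 555 ± 35.9 CPM, SD, n = 3, adjusted p = 0.523). In the Ahr line it was 443, 580 and 506 CPM in flox and 574, 637 and 594 CPM in KO, overlapping and not called (log2 change 0.24, adjusted p = 0.0933) but called with the replicate block (adjusted p = 0.0128).

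Klrb1, which encodes the inhibitory receptor NKR-P1G, differed in its change between the Ahr and Hif1a Ahr lines. It fell from 4.56, 6.02 and 5.73 CPM in Hif1a Ahr flox to 3.86, 3.76 and 3.95 CPM in Hif1a Ahr KO (1.41-fold lower, adjusted p = 0.00344), a call lost with only the compared groups in the fit (adjusted p = 0.0532). In Ahr flox it was 5.03, 6.08 and 5.82 CPM and in Ahr KO 7.28, 6.96 and 7.07 CPM, which do not overlap, yet the log2 change of 0.33 ± 0.11 was not called (adjusted p = 0.0925). The difference between these changes was -0.83 ± 0.16 (adjusted p = 0.00184). Klrb1b, which encodes an inhibitory receptor for the product of Clec2d, was not called in any line (log2 changes 0.27, 0.11 and 0.29). With the replicate block it was called in Hif1a KO (adjusted p = 0.0142).

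Among the Klra genes, the inhibitory Klra5 and Klra9 fell in both lines that target Hif1a. Klra5 encodes Ly49E, and fell from 101, 76.7 and 76.3 CPM in Hif1a flox to 54.8, 40 and 44.4 CPM in Hif1a KO (1.82-fold lower, log2 change -0.86 ± 0.18, adjusted p = 0.00184). In the Hif1a Ahr line it fell from 75.8, 81.6 and 53.9 CPM to 48.4, 36 and 33.8 CPM (1.79-fold lower, adjusted p = 0.00286). The groups did not overlap in either line. In Ahr flox it was 102, 138 and 108 CPM and in Ahr KO 139, 157 and 142 CPM, not overlapping but not called (log2 change 0.33, adjusted p = 0.338), and called with the replicate block (adjusted p = 0.0226). The Ahr change differed from the Hif1a change by 1.19 on the log2 scale (adjusted p = 0.00237).

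Klra9, which encodes Ly49I, fell from 83.9, 84.1 and 65.3 CPM in Hif1a flox to 57, 57.7 and 52 CPM in Hif1a KO (1.40-fold lower, adjusted p = 0.0102). In the Hif1a Ahr line it fell from 74.7, 71.3 and 96.7 CPM to 44.4, 39.3 and 48.4 CPM (1.84-fold lower, adjusted p = 1.29e-04). Both pairs of groups were separate. In the Ahr line it was 72.4, 89.2 and 90 CPM in flox and 85, 113 and 104 CPM in KO, which overlap (adjusted p = 0.287, and 0.0139 with the block). Klra3, which encodes Ly49C and is the nearest relative of Klra9, was 52.9, 42.5 and 39 CPM in Hif1a flox and 73.7, 50.6 and 55.2 CPM in Hif1a KO. These overlap, and the rise of 1.34-fold (adjusted p = 0.0432) was lost in 5 of 12 alternatives, with adjusted p up to 0.232 (without Hif1a KO replicate 1). It was also lost without Hif1a flox replicate 2, without Hif1a flox replicate 3, with no filter and with only the compared groups. The sum of Klra3 and Klra9 was 123 ± 16.6 CPM in Hif1a flox and 115 ± 13.3 CPM for Hif1a KO, and 128 ± 18.8 against 101 ± 12.3 in the Hif1a Ahr line (SD, n = 3). A split of shared reads between the pair was not tested.

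Klra8 and Klra4 encode Ly49H and Ly49D, activating Ly49 receptors that signal through DAP12. Klra8 rose from 153, 130 and 145 CPM in Hif1a flox to 191, 162 and 194 CPM in Hif1a KO (1.28-fold, adjusted p = 0.00212). It fell from 157, 180 and 162 CPM in Ahr flox to 131, 142 and 127 CPM in Ahr KO (1.25-fold lower, adjusted p = 0.0218), and the groups did not overlap in either line. Leaving out replicate 2 or 3 of Ahr flox, or replicate 1 or 3 of Ahr KO, ended the call of the fall (adjusted p up to 0.0961). It was level with both genes targeted (144 ± 5.13 and 135 ± 8.78 CPM, SD, n = 3, adjusted p = 0.426). Klra4 was 192, 153 and 183 CPM in Hif1a flox and 193, 181 and 201 CPM in Hif1a KO, which overlap. It was 181, 202 and 184 CPM in Ahr flox and 162, 175 and 160 CPM in Ahr KO, which do not overlap, with a log2 change of -0.19 not called (adjusted p = 0.175) except with the block (adjusted p = 0.0317).

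The remaining Klra genes moved little or were low. Klra7, which encodes Ly49G, was the most abundant of the subfamily and was not called in any line (log2 changes 0.07, 0.02 and -0.17). Klra1, which encodes Ly49A, was level at group means of 51.8 to 60.5 CPM. Klra6, which encodes Ly49F, fell from 6.85, 7.03 and 6.37 CPM in Hif1a Ahr flox to 5.47, 4.84 and 4.98 CPM in Hif1a Ahr KO (adjusted p = 0.0444), a call lost in 8 of 12 alternatives (adjusted p up to 0.136, without Hif1a Ahr KO replicate 2). These included leaving out each Hif1a Ahr flox replicate and Hif1a Ahr KO replicate 3. Klra10 (group means 2.64 to 4.24 CPM) and Klra17 (0.255 to 0.414 CPM) were not called in any line. Of the pseudogenes, Klra13-ps rose in Hif1a KO (31.7 ± 0.135 to 37.3 ± 1.22 CPM, SD, n = 3, adjusted p = 0.0111). It rose as well in Hif1a Ahr KO (30.2 ± 1.62 to 35.1 ± 3.43 CPM, SD, n = 3, adjusted p = 0.0189, lost in 5 of 12 alternatives with adjusted p up to 0.133, among them without Hif1a Ahr flox replicate 3 and Hif1a Ahr KO replicates 2 and 3). Klra11-ps fell in Hif1a KO (1.75 ± 0.234 to 1.25 ± 0.173 CPM, SD, n = 3, adjusted p = 0.0363, lost in 6 of 12 alternatives, up to 0.152). Leaving out Hif1a flox replicate 2 or 3 or Hif1a KO replicate 1 or 2 was among these. Klra14-ps was not called in any line.

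Klrg1 and Klra2 varied widely between replicates, and libraries of the same number lay high or low together. Klrg1 encodes an inhibitory receptor for cadherins that marks mature NK cells. It stood at 45.9, 28.2 and 45.5 CPM in Hif1a flox and 23, 12.9 and 39.2 CPM in Hif1a KO, which overlap (log2 change -0.67 ± 0.48, adjusted p = 0.315). In Ahr flox it was 14.8, 38 and 18.9 CPM and in Ahr KO 53.5, 81 and 60.8 CPM, every KO library above every flox library (log2 change 1.45 ± 0.48, adjusted p = 0.101). With the replicate number as a block the Ahr change was 1.53 (adjusted p = 0.00684) and the Hif1a change -0.77 (adjusted p = 0.0432). In the Ahr line Klrg1 was also called by limma voom (adjusted p = 0.0274), by DESeq2 (adjusted p = 0.0344) and without Ahr flox replicate 2 (1.95, adjusted p = 0.0452). The other alternatives did not call Klrg1 there. In the Hif1a Ahr line it was 21.3, 43.2 and 14.2 CPM in flox and 58.9, 79.3 and 49.7 CPM in KO, again separate but not called (log2 change 1.26, adjusted p = 0.0657). It was called there by limma voom (adjusted p = 0.0136), by DESeq2 (adjusted p = 0.0365) and without Hif1a Ahr flox replicate 2 (1.82, adjusted p = 0.0209). The difference between the Hif1a and Ahr changes was called (-2.12 ± 0.68, adjusted p = 0.0305), a call lost in 8 of 18 alternatives with adjusted p up to 0.0764, among them leaving out replicates 1 and 3 of either flox group in turn, replicate 2 of Ahr KO, and replicates 1 and 2 of Hif1a KO.

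Klra2, which encodes Ly49B, an inhibitory receptor better known from myeloid cells, was 3.34, 2.06 and 3.12 CPM in Hif1a flox and 1.92, 0.768 and 2.16 CPM in Hif1a KO. It was 1.07, 2.18 and 1.38 CPM in Ahr flox and 3.01, 3.88 and 2.81 CPM in Ahr KO, which do not overlap. Neither change was called (log2 changes -0.81 and 1.06, adjusted p = 0.207 and 0.219). With the block both were (-0.88, adjusted p = 0.00581, and 1.10, adjusted p = 0.0045). In the Hif1a Ahr line Klra2 was 1.53, 3.17 and 0.694 CPM in flox and 3.79, 5.79 and 2.87 CPM in KO, which overlap (log2 change 1.21, adjusted p = 0.0641). Limma voom called this change (adjusted p = 0.02), as did edgeR without Hif1a Ahr flox replicate 2 (1.90, adjusted p = 0.00743). Cdh1, which encodes the KLRG1 ligand E-cadherin, fell in Hif1a KO (278 ± 12.3 to 41.1 ± 16.7 CPM, SD, n = 3, adjusted p = 1.21e-05) and in Hif1a Ahr KO (adjusted p = 3.00e-05). Klrg2 was below 1.1 CPM in every library. Its call in Hif1a Ahr KO (0.198, 0.206 and 1.06 CPM in flox and 0.0717, 0.106 and 0.192 CPM in KO, adjusted p = 0.0486) was lost without Hif1a Ahr flox replicate 3 (adjusted p = 0.497) and in 6 other alternatives, among them without each Hif1a Ahr KO replicate.

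**Figure D4:**
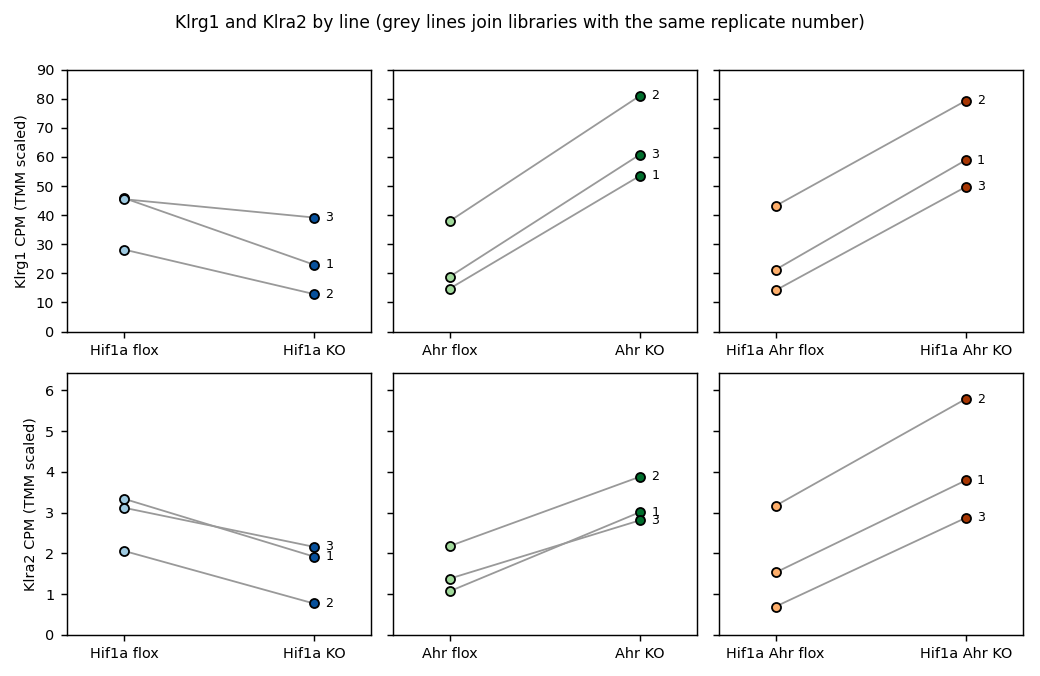
Levels of Klrg1 (top) and Klra2 (bottom) in flox and KO libraries of each line (vertical axes, CPM with TMM scaling), with grey lines joining libraries of the same replicate number. In the Ahr and Hif1a Ahr lines all 3 lines rise and replicate 2 is the highest in flox and KO, while in the Hif1a line all 3 fall and replicate 2 is the lowest.

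Summed over subfamilies, a measure that does not depend on how reads split within a subfamily, Klrc, Klri and Klrk stayed higher in Hif1a KO and lower in Ahr KO than in their flox groups. The Klrc sum was 158, 160 and 130 CPM in Hif1a flox and 210, 214 and 186 CPM in Hif1a KO, and 185, 180 and 191 CPM in Ahr flox against 161, 171 and 177 CPM in Ahr KO. The Klri sum was 200 ± 7.76 and 273 ± 7.63 CPM in Hif1a flox and KO, and 239 ± 1.84 and 173 ± 4.93 CPM in Ahr flox and KO (SD, n = 3). The sum of the 14 Klra genes was level in the Hif1a line (910 ± 51.8 and 941 ± 53.6 CPM, SD, n = 3) and lower in Hif1a Ahr KO (765 ± 37.2 CPM) than in Hif1a Ahr flox (873 ± 22.1 CPM). The mean Klrb sum was higher in KO than in flox in every line: 721 ± 29.9 and 834 ± 43.3 CPM in Hif1a flox and KO, 715 ± 76.3 and 821 ± 40.7 CPM in Ahr flox and KO, where the libraries overlap, and 714 ± 22.7 and 939 ± 66.6 CPM in Hif1a Ahr flox and KO (SD, n = 3). The Klrb sum can still depend on how reads split with Gm44511, a gene outside the subfamily. A shift seen in every line cannot be told apart from one that goes with Cre, which every KO group carries. These sums are descriptions with no test.

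**Figure D5:**
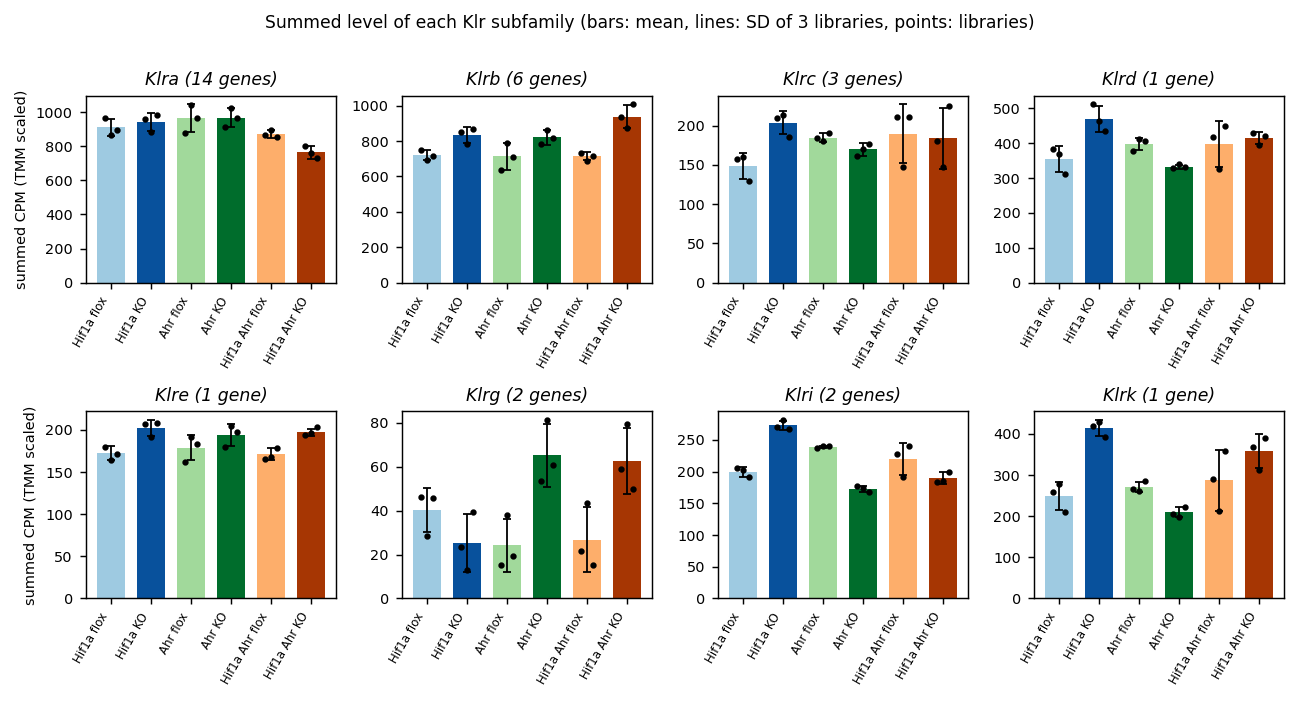
Summed level of 8 subfamilies by group (vertical axes, CPM with TMM scaling, from 0); bars are means, lines the SD of 3 libraries and points the libraries. Klrc, Klri and Klrk are highest in Hif1a KO and, for Klri and Klrk, lowest in Ahr KO, while the Klra sum is lowest in Hif1a Ahr KO.

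Genes around the receptors were taken from lists. Of all genes tested, 17.6% rose and 17.8% fell in Hif1a KO, 2.14% and 4.78% in Ahr KO, and 14.8% and 16.5% in Hif1a Ahr KO. With the replicate block these shares were 20.3% and 20.4% in Hif1a KO and 6.17% and 8.29% in Ahr KO. Counts below are to be read against the shares of the same fit. Of 20 genes for adaptors and kinases of activating signals, 3 rose and 8 fell in Hif1a KO, 0 rose and 2 fell in Ahr KO (4 and 2 with the replicate block), and 4 rose and 7 fell in Hif1a Ahr KO. Zap70, a kinase that binds phosphorylated activating chains, fell in Hif1a KO (178 ± 11.7 to 104 ± 5.07 CPM, SD, n = 3, adjusted p = 8.79e-07), and the related Syk rose (32.1 ± 4.14 to 55.5 ± 4.76 CPM, adjusted p = 4.36e-06). The signalling scaffold Lcp2 rose 1.61-fold (adjusted p = 3.41e-07). Tyrobp, the DAP12 gene, fell from 471 ± 54.4 to 356 ± 33.9 CPM in Hif1a KO (SD, n = 3, adjusted p = 0.00253, named after its value was seen), while Hcst, the DAP10 gene, was not called in any line (adjusted p = 0.389, 0.39 and 0.47). In Ahr KO, Lck and Lat, a kinase and an adaptor of proximal signalling, fell (log2 changes -0.57 and -0.37, adjusted p = 0.00368 and 0.0467).

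Of 9 genes for phosphatases and other inhibitory signalling, 2 rose and 2 fell in Hif1a KO, and 1 rose and 1 fell in each of the other lines (2 and 2 with the block in Ahr KO). Ptpn6, which encodes SHP-1, fell in Hif1a KO (225 ± 20.8 to 140 ± 19.7 CPM, SD, n = 3, adjusted p = 0.00982) and in Hif1a Ahr KO (230 ± 62.9 to 129 ± 32.1 CPM, SD, n = 3, adjusted p = 0.00325). The adaptor gene Dok2 fell in Hif1a KO (log2 change -0.60, adjusted p = 6.65e-04) and rose in Ahr KO (0.47, adjusted p = 0.022), and Dok1 did the reverse (0.59 and -0.58, adjusted p = 0.00556 and 0.0271). Of 14 transcription factors known to act on these receptor genes, 5 rose and 5 fell in Hif1a KO (17.6% and 17.8% of all genes). In Ahr KO 2 rose and 2 fell (2.14% and 4.78% of all genes), and 4 and 4 with the block (6.17% and 8.29%). In Hif1a Ahr KO 5 rose and 3 fell (14.8% and 16.5% of all genes). Nfil3 fell in Hif1a KO (log2 change -1.16, adjusted p = 3.37e-06) and in Hif1a Ahr KO (-0.70, adjusted p = 5.20e-04), and Zeb2 rose in both (0.84 and 0.92). Tcf7, known to act on Ly49 genes, rose in Hif1a KO (5.24-fold, adjusted p = 2.35e-04) and in Hif1a Ahr KO (3.53-fold, adjusted p = 0.00182), and fell in Ahr KO (log2 change -1.82, adjusted p = 0.0142). Eomes fell in Hif1a KO (-0.60, adjusted p = 0.00669) and rose in Ahr KO (0.75, adjusted p = 0.00802) and Hif1a Ahr KO (0.77, adjusted p = 0.00127). Values of Tcf7 and Eomes outside Ahr KO were chosen after they had been seen.

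Of 13 tested ligand genes of these receptors, 6 rose and 4 fell in Hif1a KO (17.6% and 17.8% of all genes). In Ahr KO 1 rose and 1 fell (2.14% and 4.78% of all genes), and 2 and 2 with the block (6.17% and 8.29%). In Hif1a Ahr KO 6 rose and 5 fell (14.8% and 16.5% of all genes). Genes for ligands of NKG2D moved in both directions. Ulbp1, the most abundant of those named here, rose in Hif1a KO (170 ± 5.08 to 220 ± 6.9 CPM, SD, n = 3, adjusted p = 8.32e-05) and in Hif1a Ahr KO (1.18-fold, adjusted p = 0.00597), both given after its values were seen. The low H60b and Raet1d fell in Hif1a KO (0.792 ± 0.114 to 0.0415 ± 0.042 CPM and 1.79 ± 0.342 to 0.462 ± 0.137 CPM, SD, n = 3, adjusted p = 5.19e-07 and 2.07e-05). They fell in Hif1a Ahr KO too (log2 changes -3.01 and -2.95). In Ahr KO, H60b rose (1.06, adjusted p = 0.028) and Ulbp1 fell (-0.22, adjusted p = 0.0305). Of 7 tested lectin genes of the same gene complex outside the Klr family, 2 rose and 1 fell in Hif1a KO (3 and 3 with the block), 1 and 1 in Ahr KO (2 and 2 with the block), and 2 and 2 in Hif1a Ahr KO. Cd69 fell in Ahr KO (171 ± 57.4 to 57.9 ± 11.1 CPM, SD, n = 3, adjusted p = 0.00955) and in Hif1a Ahr KO (adjusted p = 0.0157). Median log2 changes of these 5 lists lay between -0.23 and 0.26, against -0.02 to 0.00 over all genes.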

How the data were processed

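RNA of 18 libraries was sequenced on a DNBSEQ instrument as strand-specific mRNA libraries, per the labels' protocols. The submitters' processing notes name Trim Galore 0.6.4, kallisto 0.4.6, edgeR 3.17 and the build GRCm39. The deposited estimated counts per gene come from this processing by the authors, and 66.3% of the values above 0 were not whole (tolerance 1e-06). The authors also deposited log2 CPM values, which matched values recomputed from these counts (prior count 2). Totals were 54420649 to 55732940 estimated counts, and values without a symbol in the name table held 0.315% of the counts.

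Counts were analysed as deposited, without rounding, in R 4.3.3 with edgeR 4.0.16: filterByExpr by group, TMM scaling, 1 fit of the 6 group means in 18 libraries, and robust quasi-likelihood F tests with 12 residual degrees of freedom and Benjamini-Hochberg adjustment over 16747 genes, calling at 0.05. All fold changes, SEs and adjusted p-values in the text come from this edgeR fit unless another is named. The p-values set each change against the spread between biological replicates, estimated for each gene over the 6 groups together with information shared across genes. Without the block this spread includes differences that go with the replicate number. Differences between lines are contrasts of KO minus flox changes in the same fit. A 2-sided exact permutation test of 3 against 3 cannot give a p under 0.1, so none is given. The procedure was tested on simulated data. Alternatives were limma 3.58.1 (voom), DESeq2 1.42.0 (on counts rounded to whole numbers), RLE scaling, no filter, only the compared groups, the replicate number as a block, leaving out each library and, chosen after seeing the data, rounding the counts before edgeR.

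Same-numbered KO and flox libraries deviated together in the Hif1a line (r = 0.331, 0.544 and 0.3) and the Ahr line (0.521, 0.441 and 0.487), so the blocked values stand beside results there. In both, each flox library correlated best with the KO library of its number. The labels name no pairing, and it was read from these same counts. Every tested member is named. From each other list, up to 4 called genes per comparison by adjusted p were named. The members and lists were chosen with earlier results of these data known. Coding starts and 31-base words come from GENCODE vM21 and promoters from RefSeq GRCm38.p6, builds other than that of the counts.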

Additional observations from a re-analysis of the deposited data

Results flagged for a closer look

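The changes of 14 members differed between the Hif1a and Ahr lines by a contrast of both changes in the edgeR fit (Hif1a minus Ahr, log2, Benjamini-Hochberg adjusted p). The difference was above 0, a more positive or less negative change in Hif1a KO than in Ahr KO, for Klrc3 (2.12, adjusted p = 1.19e-05), Klrc2 (1.43, 6.21e-04), Klrb1f (1.40, 5.21e-04), Klrk1 (1.10, 5.45e-04), Klri2 (0.92, 2.27e-06), Klrb1a (0.76, 9.47e-04), Klri1 (0.75, 0.00207), Klrd1 (0.67, 0.0014), Klra8 (0.67, 1.99e-04) and Klra4 (0.31, 0.0397). The sign was the other way for Klrg1 (-2.12, 0.0305), Klra2 (-1.88, 0.0445), Klra5 (-1.19, 0.00237) and Klra9 (-0.75, 0.00634). The calls of Klra2, Klra4 and Klrg1 were lost in 10, 7 and 8 of 18 alternatives, with adjusted p up to 0.134, 0.107 and 0.0764. For Klra2 and Klrg1 these included no filter and leaving out Ahr flox replicate 1, Ahr flox replicate 3, Ahr KO replicate 2, Hif1a flox replicates 1 and 3 and Hif1a KO replicates 1 and 2, and for Klra2 also Ahr KO replicates 1 and 3. For Klra4 they were leaving out replicate 2 or 3 of Ahr flox, replicate 2 of Hif1a flox, or replicate 1 or 3 of either of these lines' KO groups.

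The Hif1a Ahr change was lower than the Hif1a change for Klri1 (-1.11, adjusted p = 0.00113), Klrc2 (-1.01, 0.025), Klrc3 (-0.87, 0.045), Klri2 (-0.64, 0.00124), Klrb1a (-0.58, 0.0253) and Klra8 (-0.45, 0.0207). The calls of Klrc2, Klrc3, Klrb1a and Klra8 were lost in 9, 8, 5 and 2 of 18 alternatives. For Klra8 these were leaving out Hif1a Ahr KO replicate 3 or Hif1a KO replicate 1. For Klrb1a they were leaving out Hif1a Ahr flox replicate 3, Hif1a Ahr KO replicate 2 or 3, Hif1a flox replicate 1 or Hif1a KO replicate 2.

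Against the Ahr change, the Hif1a Ahr change was higher for Klrb1f (1.37, adjusted p = 0.00137), Klrc3 (1.25, 0.00332) and Klrk1 (0.69, 0.0291). It was lower for Klra5 (-1.17, 0.00615), Klra9 (-1.14, 6.31e-04) and Klrb1 (-0.83, 0.00184). The call of Klrk1 was lost in 7 of 18 alternatives: no filter, and leaving out replicate 1 or 3 of Hif1a Ahr KO, replicate 1 or 3 of Ahr flox, or replicate 1 or 2 of Ahr KO. The other 5 held in all 18.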

How the results depend on the processing

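No called result changed sign: of 54 called member results, 37 kept their call under every alternative, and 38 uncalled ones were called by 1 alternative or more. Rounding the counts before edgeR, tried after seeing the data, changed 0 member calls. RLE scaling moved the median change of all genes by at most 0.007. With the replicate block, 5 members were called lower in the Hif1a line (20.4% of all genes). The block gave 5 higher and 8 lower in the Ahr line (6.17% and 8.29% of all genes). It gave 9 higher in the Hif1a Ahr line (18.1% of all genes). For the Hif1a Ahr change against the Hif1a and the Ahr change it gave 14 and 12. No share over all genes is given for these differences or for the other settings below. Those counts are therefore not results about the members. In the Hif1a Ahr line (r = 0.0779, 0.464 and 0.293) flox replicate 1 correlated best with KO replicate 3, so the numbers were not taken as pairs. With the block Klrg1 (1.37, adjusted p = 0.00413) and Klra2 (1.33, 3.25e-04) were called there. With only the compared groups, the Ahr line gave 1 higher and 7 lower and the Hif1a Ahr line 2 higher and 3 lower. For higher calls in the Ahr line limma voom gave 1 and DESeq2 gave 3, and DESeq2 called 2 between flox groups. The cause was not tested. Leaving out single libraries, the Ahr line gave 0 to 2 higher (2 without Ahr flox replicate 2), the Hif1a Ahr line 2 to 5 higher (2 without Hif1a Ahr KO replicate 3), and the Hif1a Ahr against Hif1a difference 3 to 10 (10 without Hif1a Ahr flox replicate 2; 3 without Hif1a KO replicate 1 or 2, Hif1a flox replicate 1, Hif1a Ahr KO replicate 2 or Hif1a Ahr flox replicate 3). Groups then did not overlap for 3 to 6 lower members in the Hif1a line, 5 to 9 higher in the Ahr line and 5 to 7 higher in the Hif1a Ahr line, where fewer libraries make separation easier. Higher calls in the Hif1a line stayed at 9 to 11. Klrg2 and Klra17, under 1 CPM on average, are limited by depth.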
